A study of Homo sapiens with 9 samples.

Results

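The MHC class II presentation genes described here are 10 listed genes: the regulator CIITA, the invariant chain CD74, the protease gene CTSS, the chain genes HLA-DRA, HLA-DRB1, HLA-DPA1, HLA-DPB1 and HLA-DQB1, and the peptide-exchange genes HLA-DMA and HLA-DMB. They were taken by name from 58237 annotated genes, and all 10 were among the 18205 genes with enough reads to test. Total RNA of H358, an established human line from a non-small cell lung cancer, was sequenced after growth in RPMI medium with fetal bovine serum. The parental genotype, a CRISPR knockout of SMARCA4 and a CRISPR knockout of SMARCA2 each gave 3 libraries. SMARCA4 encodes BRG1 and SMARCA2 encodes BRM, the alternative ATPases of the SWI/SNF chromatin remodelling complexes. No added agent, such as interferon gamma, appears in the labels of any group. The labels do not say whether a knockout was a clone or a pool of cells, nor which sites were targeted. Parental cells were the only controls, so effects of editing or culture cannot be told apart from loss of the gene. Nothing in the labels says that replicates were separate cultures, so every p-value measures only the spread between these libraries, which may be technical.

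MHC class II molecules are pairs of an alpha and a beta chain that display peptides from endosomes to CD4+ T cells. CD74 fills the binding groove of new pairs and escorts them to endosomes, where cathepsin S, the product of CTSS, trims it, and the HLA-DM pair swaps the last CD74 fragment for a peptide. The class II chains, CD74 and HLA-DM genes are known to depend on CIITA, a coactivator that binds no DNA itself and sits on RFX, CREB and NF-Y factors at a shared promoter module. Professional antigen presenting cells make these genes all the time, most other cells after interferon gamma, and alveolar type II cells of the lung are a known epithelial exception.

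That shared module, an X box followed by a Y box, is shown because it is the sequence feature that most of these genes have in common. RefSeq promoters on GRCh38.p14 were at hand for 7 of the 10 genes, as 8 windows, and not for CIITA, CTSS and HLA-DRA. The 250 bases before each start were searched for an X box pattern (AG, any 2 bases, AC, any 3 bases, TG) and for ATTGG as a Y box, each on either strand. Both patterns were written after these sequences had been seen, and they do not overlap each other. The X pattern stood in 5 of 8 windows against 10.3% of 35116 RefSeq promoters, and the Y pattern in 6 of 8 against 32.0%. An X pattern followed within 40 bases by ATTGG or CCAAT stood in 4 of 8 windows against 0.649% of promoters. Capitals below mark the X pattern and, where present, the paired Y pattern, and all 5 genes lie on the minus strand. The stretches are chr5:150412949-150413001 for CD74, chr6:32589880-32589937 for HLA-DRB1, chr6:32666731-32666788 for HLA-DQB1, chr6:32953162-32953220 for HLA-DMA and chr6:32941096-32941126 for HLA-DMB.
CD74: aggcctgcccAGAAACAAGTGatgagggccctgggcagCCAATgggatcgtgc
HLA-DRB1: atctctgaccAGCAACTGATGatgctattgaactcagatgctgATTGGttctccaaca
HLA-DQB1: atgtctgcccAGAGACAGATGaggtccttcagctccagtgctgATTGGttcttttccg
HLA-DMA: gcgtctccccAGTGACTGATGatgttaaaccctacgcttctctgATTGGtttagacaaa
HLA-DMB: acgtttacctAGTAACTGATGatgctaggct

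The gap between the X and Y patterns was 17 bases in CD74, 22 in HLA-DRB1 and HLA-DQB1 and 23 in HLA-DMA. The X pattern began 81 bases before the start in CD74, 79 in HLA-DRB1, 88 in HLA-DMB, 113 in HLA-DMA and 121 in HLA-DQB1. HLA-DMB held both patterns, but no Y pattern within 40 bases after the X pattern. HLA-DPB1 held the Y pattern alone, and the 2 HLA-DPA1 windows held neither, which says only that these letters were not in those windows. A match is a description of the reference sequence, not of the H358 alleles or of any bound factor. HLA-DQB1 is shown beside the others because it carries the paired pattern, although its RNA, given below, was not called higher in the BRG1 knockout.

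Depth was 31969961 to 40679073 estimated reads per library. The targeted genes followed the labels. SMARCA4 fell from 224 ± 17.4 CPM (reads relative to library size, scaled by the TMM method, mean ± SD, n = 3) in parental cells to 22.9 ± 1.51 in the BRG1 knockout, and SMARCA2 from 54.3 ± 4.47 to 10.6 ± 1.34 in the BRM knockout. Summed over the epithelial markers EPCAM, KRT8, KRT18, KRT19 and CDH1, the level was 5134 to 5344 CPM in parental libraries and 4705 to 5472 in BRM knockouts, but 421 to 1176 in BRG1 knockouts. Of 19 markers of blood and antigen presenting cells, 6 (MS4A1, CD1C, CLEC9A, FLT3, LILRB1 and CD2) had 0 reads in all 9 libraries. The sum of all 19 was 38.2 to 51.6 CPM in parental, 23.3 to 25.9 in BRG1 knockout and 26.5 to 77.7 in BRM knockout libraries. Without CD68, LAPTM5 and CSF1R, which made up most of it, the other 16 gave 1.88 to 2.69, 1.84 to 2.21 and 1.80 to 3.82 CPM. In bulk RNA, fewer cells expressing a gene and less RNA per cell cannot be told apart.

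In the BRG1 knockout most class II genes had more RNA and CTSS had less, while CIITA was not called. CIITA stood at the parental level as CPM. As TPM, which corrects for length, CIITA stood below that level, but the fit with length offsets did not call it. Against parental cells, 7 of the 10 genes rose, 1 fell and 2 did not pass an adjusted p of 0.05 in edgeR's quasi-likelihood test with Benjamini-Hochberg adjustment. Among all genes tested, 43.5% passed in that comparison, 21.6% as higher and 21.9% as lower. The median log2 fold change was 2.24 over the 10 genes and -0.01 over all genes. The genes that rose were CD74, HLA-DRA, HLA-DRB1, HLA-DPA1, HLA-DPB1, HLA-DMA and HLA-DMB. CTSS fell, and CIITA and HLA-DQB1 did not pass. HLA-DPA1 and HLA-DPB1 passed the filter on low counts (0.268 CPM in at least 3 libraries) only through the BRG1 knockout libraries, so they had to differ. HLA-DRA and HLA-DMB would not have passed it without those libraries either.

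In BRM knockout cells 3 of the 10 genes passed. Against parental cells, CTSS rose, CD74 and HLA-DPA1 fell, and the other 7 genes did not pass, where 37.4% of all genes tested passed (21% higher, 16.4% lower). The median log2 fold change of the 10 genes was -0.33, against 0.09 over all genes. Set directly against the BRM knockout, the BRG1 knockout was higher in 7 genes and lower in 2 (CTSS and HLA-DQB1), and CIITA did not pass. In that comparison 45.3% of genes tested passed, 21.6% as higher and 23.8% as lower. Among the 7, HLA-DRA, HLA-DPA1, HLA-DPB1 and HLA-DMB had 0 BRM knockout libraries over the low-count filter. They would not have been tested without the BRG1 knockout libraries, so a higher value there was favoured. With at least 1 CPM required in 3 libraries, 3 class II genes were higher. The 3 comparisons share groups, so their values are not independent of each other. None of the 3 medians moved when groups with 0 reads were set at the bound given below. This had to be so, since the genes concerned lie away from the middle ranks.

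**Figure D1:**
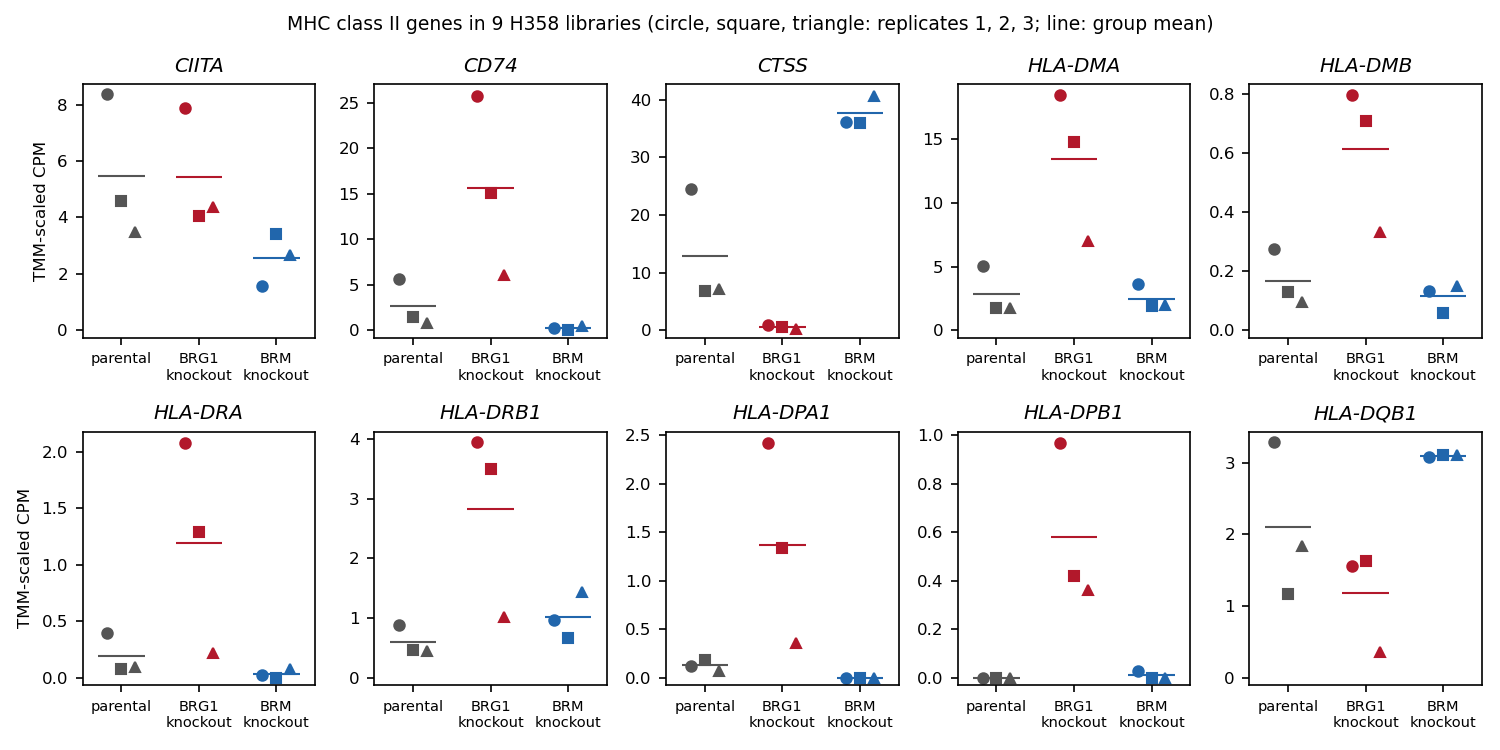
TMM-scaled CPM (vertical axis, linear, its own scale in each panel) of the 10 class II genes in 3 parental, 3 BRG1 knockout and 3 BRM knockout libraries. Each point is 1 library, its shape gives the replicate number and the line is the group mean: replicate 1 of the parental and of the BRG1 knockout group is the highest of its group for CD74 and HLA-DMA, and BRG1 knockout replicate 3 is the lowest.

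CIITA (ENSG00000179583.19, chr16:10866222-10943021, plus strand, hg38) encodes the coactivator named above. It stood at 8.37, 4.58 and 3.50 CPM in parental replicates 1, 2 and 3. The BRG1 knockout gave 7.88, 4.04 and 4.38 CPM, and the BRM knockout 1.59, 3.43 and 2.69. Parental and BRG1 knockout libraries covered the same range, with replicate 1 high in both, whereas each BRM knockout library lay below each parental one, the nearest pair being 3.43 and 3.50. The log2 fold change was -0.01 ± 0.40 (SE, adjusted p = 0.98) for the BRG1 knockout. It was -1.10 ± 0.41 (adjusted p = 0.058) for the BRM knockout against parental cells. Between the knockouts it was 1.08 ± 0.41 (adjusted p = 0.052). Both of these missed the threshold and passed it in 9 of 19 alternatives each, among them the DESeq2 test (-1.15 with adjusted p = 0.0176 and 1.12 with adjusted p = 0.0177). Without parental replicate 1 the BRM knockout value was -0.66.

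CIITA stood differently on a scale that corrects for length. On the authors' TPM scale, CIITA gave 2.56, 2.07 and 1.08 in parental, 1.01, 0.427 and 0.652 in BRG1 knockout and 0.251, 0.983 and 0.226 in BRM knockout libraries, so that both knockouts lay below parental cells. The nearest pair was 1.08 in parental replicate 3 and 1.01 in BRG1 knockout replicate 1. Both TPM and effective lengths rest on Salmon's split of few reads among transcripts, described below. The part of that split in these values was not tested. With the files' effective lengths as offsets in the fit, CIITA fell by 2.03 (log2) in the BRM knockout (adjusted p = 0.021), and CIITA in the BRG1 knockout was -1.29 (adjusted p = 0.09).

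Salmon assigned most CIITA reads to 7 transcripts that begin at or near base 10877198, namely 70.2% to 100% of the gene's reads in the 9 libraries. The 2 transcripts beginning near 10866222 had 0 reads in every library. A transcript beginning at 10878969 was given 6.3, 5.7 and 6.0 reads in parental libraries, 0 in each BRG1 knockout and 0, 3.8 and 0 in the BRM knockouts. A short transcript beginning at 10940719 took 26.3, 46.6 and 0 reads in parental libraries, 14.7, 4.8 and 9.9 in BRG1 knockouts and 0, 11.4 and 0 in BRM knockouts. Shares per transcript are model estimates, and they are given as a description. CIITA overlaps DEXI on the opposite strand, which had 920 to 1179 reads in parental, 1324 to 1793 in BRG1 knockout and 586 to 664 in BRM knockout libraries. No strand setting was found in the labels, so reads from exons shared with DEXI cannot be told apart. AC133065.3 overlaps CIITA on the same strand, where a strand setting would not separate shared reads. It had 30, 6 and 27 reads in parental, 56, 38 and 49 in BRG1 knockout and 44, 21 and 19 in BRM knockout libraries.

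CD74 (ENSG00000019582.14, chr5:150401637-150412929, minus strand), the invariant chain, moved in opposite directions in the 2 knockouts. It gave 5.65, 1.46 and 0.811 CPM in parental libraries. The BRG1 knockout gave 25.7, 15.1 and 6.09 CPM and the BRM knockout 0.215, 0.0301 and 0.506. No library of one group overlapped another group, although the lowest BRG1 knockout (6.09) and the highest parental library (5.65) nearly met. In reads, the BRM knockouts held 8, 1 and 20 against 184, 56 and 34 in parental cells. CD74 rose by 2.58 ± 0.80 (log2) in the BRG1 knockout (adjusted p = 0.026) and fell by 3.33 ± 0.95 in the BRM knockout (adjusted p = 0.021). The direct difference between knockouts was 5.90 ± 0.99 (adjusted p = 0.00099).

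Both CD74 calls against parental cells rested on few libraries. The rise was no longer called without BRG1 knockout replicate 1 (1.97, adjusted p = 0.104), BRG1 knockout replicate 2 (2.55, 0.0634), parental replicate 2 (2.28, 0.097) or parental replicate 3 (2.14, 0.0836). Leaving out parental replicate 1 together with BRG1 knockout replicate 3 gave 4.08 (adjusted p = 0.00063). These were the highest parental and the lowest BRG1 knockout library for CD74, so a larger rise was built in. The fall in the BRM knockout was not called without parental replicate 1 (-2.12, adjusted p = 0.0721), BRM knockout replicate 1 (-3.29, 0.0677) or BRM knockout replicate 2 (-2.84, 0.0555). Without the low-count filter neither was called (2.50 with adjusted p = 0.125 and -3.41 with 0.0967). The difference between knockouts was called in every alternative run.

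One CD74 transcript took 82.3% to 100% of CD74 reads, except in BRM knockout replicate 2, whose single read went elsewhere. Another was assigned 76.8, 45.5 and 5.1 reads in the BRG1 knockouts and 3.0, 0 and 0 in parental cells. A further CD74 transcript was assigned 40.2, 31.9 and 9.0 reads in the BRG1 knockouts and 0 in every parental library.

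CTSS (ENSG00000163131.10, chr1:150730196-150765957, minus strand), which encodes cathepsin S, moved opposite to CD74. It gave 24.5, 6.78 and 7.25 CPM in parental libraries. The BRG1 knockout gave 0.995, 0.526 and 0.221 CPM, and the BRM knockout 36.2, 36.0 and 40.6. The 3 groups did not overlap: BRG1 knockouts were lowest, BRM knockouts highest, and parental replicate 1 stood well above the other parental libraries. CTSS fell by 4.46 ± 0.62 (log2) in the BRG1 knockout (adjusted p = 0.00035), a call kept in every alternative run. It rose by 1.55 ± 0.51 in the BRM knockout (adjusted p = 0.036). That rise was larger without parental replicate 1 (2.42, adjusted p = 0.00111) and was lost without parental replicate 2 (1.24, 0.118), parental replicate 3 (1.27, 0.125), BRG1 knockout replicate 2 (1.49, 0.0621) or any 1 BRM knockout library (1.49 to 1.58, 0.061 to 0.0919). Between the knockouts the difference was -6.01 ± 0.65 (adjusted p = 6.1e-05).

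The antigen-binding chains were at low levels throughout. HLA-DRA (ENSG00000204287.13, chr6:32439842-32445046, plus strand), the alpha chain of HLA-DR, had 13, 3 and 4 reads in parental, 73, 49 and 8 in BRG1 knockout and 1, 0 and 3 in BRM knockout libraries. As CPM these were 0.399, 0.0783 and 0.0954, then 2.07, 1.29 and 0.221, then 0.0268, 0 and 0.0759. BRG1 knockout replicate 3 lay inside the parental range, and each BRM knockout library lay below each parental one. HLA-DRA rose by 2.67 ± 0.88 (log2) in the BRG1 knockout (adjusted p = 0.03) and was -2.26 ± 1.19 in the BRM knockout (adjusted p = 0.16). HLA-DRA was over the low-count filter in 1 parental, 2 BRG1 knockout and 0 BRM knockout libraries. A higher value in the BRG1 knockout was thus favoured, and the p-values of HLA-DRA are given as a description. The rise was lost without BRG1 knockout replicate 1 (1.97, adjusted p = 0.136), BRG1 knockout replicate 2 (2.55, 0.068), parental replicate 2 (2.29, 0.107) or parental replicate 3 (2.33, 0.11), and under limma voom (2.48, 0.0583). It was 4.13 in the absence of parental replicate 1 and of BRG1 knockout replicate 3. Those were the highest parental and the lowest BRG1 knockout library for HLA-DRA, so a larger rise was built in. The difference between knockouts was 4.93 ± 1.08 (adjusted p = 0.0036).

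HLA-DRB1 (ENSG00000196126.11, chr6:32578769-32589848, minus strand), a beta chain that pairs with HLA-DRA, had 29, 18 and 19 reads in parental libraries. It had 139, 133 and 37 in BRG1 knockouts and 36, 22 and 57 in BRM knockouts. The CPM were 0.891, 0.470 and 0.453, then 3.95, 3.50 and 1.02, then 0.965, 0.662 and 1.44. Every BRG1 knockout library lay above every parental one, and BRM knockouts overlapped both groups. HLA-DRB1 rose by 2.23 ± 0.54 (log2) in the BRG1 knockout (adjusted p = 0.0067), a call kept in every alternative run. It was 0.77 ± 0.54 in the BRM knockout (adjusted p = 0.28). The difference between knockouts, 1.46 ± 0.52 (adjusted p = 0.04), was lost in 10 of 19 alternatives, among them without BRG1 knockout replicate 1 (1.17, 0.124), BRG1 knockout replicate 2 (1.28, 0.105), BRM knockout replicate 1 (1.43, 0.0951) and BRM knockout replicate 2 (1.22, 0.127).

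HLA-DRB5, a second beta chain gene of the DR type, had 17, 8 and 6 reads in parental, 44, 53 and 16 in BRG1 knockout and 14, 8 and 20 in BRM knockout libraries. HLA-DRB5 rose by 1.84 ± 0.61 (log2) in the BRG1 knockout (adjusted p = 0.031), with overlapping groups, and was 0.39 ± 0.63 in the BRM knockout (adjusted p = 0.65). The reads of HLA-DRB1 per read of HLA-DRB5 stayed between 1.71 and 3.17 in the 9 libraries. The DR beta genes are near copies and vary between people, so a quantifier can share reads between them, and reads of the H358 alleles may have been assigned to the wrong gene or lost. The same limit holds for each HLA value given here.

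HLA-DPA1 (ENSG00000231389.7, chr6:33064569-33080775, minus strand) and HLA-DPB1 (ENSG00000223865.10, chr6:33075926-33087201, plus strand) encode the HLA-DP pair and were found almost solely in the BRG1 knockout. HLA-DPA1 had 4, 7 and 3 reads in parental, 85, 51 and 13 in BRG1 knockout and 0 in every BRM knockout library. HLA-DPB1 had 0 reads in every parental library, 34, 16 and 13 in the BRG1 knockouts and 1, 0 and 0 in the BRM knockouts. For both genes each BRG1 knockout library lay above the other 6.

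HLA-DPA1 rose by 3.42 ± 0.78 (log2) in the BRG1 knockout (adjusted p = 0.0069). HLA-DPB1 was at least 21.7-fold higher there (63 reads against 0, with a floor of 3 reads over the group, adjusted p = 0.0013). Since these 2 genes entered the test only through the BRG1 knockout libraries, a higher value there was built in, and their p-values are given as a description. Against parental cells, HLA-DPA1 in the BRM knockout was at least 4.55-fold lower (0 reads against 14, adjusted p = 0.032), a call lost without any 1 BRM knockout library or without parental replicate 1 or 2 (adjusted p = 0.0522 to 0.0841). No fold is given for HLA-DPB1 there, with 1 read against 0 (adjusted p = 0.41). Between the knockouts HLA-DPA1 was at least 49.97-fold higher in the BRG1 knockout (adjusted p = 0.0007). HLA-DPB1 was 63.4-fold higher, with a 95% counting interval of 10.97 to 2543 (63 reads against 1, adjusted p = 0.002). Floors and counting intervals cover counting error only. The ends of these 2 genes overlap on opposite strands.

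HLA-DQB1 (ENSG00000179344.16, chr6:32659467-32668383, minus strand), the beta chain of HLA-DQ, was not called in either knockout against parental cells. It had 107, 45 and 77 reads in parental, 55, 62 and 13 in BRG1 knockout and 115, 103 and 123 in BRM knockout libraries, or 3.29, 1.17 and 1.84, then 1.56, 1.63 and 0.360, then 3.08, 3.10 and 3.11 CPM. Parental libraries overlapped both knockouts, and the BRG1 knockouts all lay below the BRM knockouts. The log2 fold change was -0.82 ± 0.52 (adjusted p = 0.23) in the BRG1 knockout and 0.57 ± 0.50 (adjusted p = 0.4) in the BRM knockout. Without BRG1 knockout replicate 3, the lowest of its group, it was -0.45, without parental replicate 1, the highest of its group, -0.35, and without both -0.00. Between the knockouts it was -1.38 ± 0.52 (adjusted p = 0.049), a call lost in 10 of 19 alternatives (adjusted p = 0.0528 to 0.0986).

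The alpha partner HLA-DQA1 had 3, 0 and 0 reads in parental, 1, 1 and 4 in BRG1 knockout and 0 in every BRM knockout library. HLA-DQB1 reads were thus counted almost without its partner. Of 11 further class II chain genes, 7 had no reads in the 9 libraries and only HLA-DRB5 reached the filter. HLA-DOA and HLA-DOB, which form the modulator of HLA-DM, had at most 4 and 10 reads in a library.

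The HLA-DM genes, which load peptide, rose in the BRG1 knockout. HLA-DMA (ENSG00000204257.14, chr6:32948613-32969094, minus strand) gave 5.04, 1.75 and 1.74 CPM in parental, 18.4, 14.7 and 7.03 in BRG1 knockout and 3.62, 1.90 and 1.95 in BRM knockout libraries. All BRG1 knockouts lay above all parental libraries, and parental and BRM knockout libraries overlapped. HLA-DMA rose by 2.24 ± 0.50 (log2) in the BRG1 knockout (adjusted p = 0.0044), a call kept in every alternative run, and was -0.18 ± 0.49 in the BRM knockout (adjusted p = 0.8). Between the knockouts it was 2.43 ± 0.50 (adjusted p = 0.0028). BRD2, a highly expressed gene with 10349 to 13789 reads, overlaps HLA-DMA on the opposite strand.

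HLA-DMB (ENSG00000242574.8, chr6:32934629-32941070, minus strand) had 9, 5 and 4 reads in parental, 28, 27 and 12 in BRG1 knockout and 5, 2 and 6 in BRM knockout libraries. In CPM each BRG1 knockout (0.796, 0.710 and 0.332) lay above each parental library (0.276, 0.130 and 0.0954), and the BRM knockouts (0.134, 0.0602 and 0.152) overlapped parental cells. HLA-DMB rose by 1.88 ± 0.59 (log2) in the BRG1 knockout (adjusted p = 0.025) and was -0.48 ± 0.67 in the BRM knockout (adjusted p = 0.61). The rise was lost in 7 of 18 alternatives that gave a value, among them without BRG1 knockout replicate 1 (1.60, adjusted p = 0.101), BRG1 knockout replicate 2 (1.70, 0.0739), parental replicate 2 (1.73, 0.0927) or parental replicate 3 (1.59, 0.108), and with length offsets (1.50, 0.118). Between the knockouts it was 2.36 ± 0.62 (adjusted p = 0.0097). HLA-DMB was over the low-count filter in 1 parental, 3 BRG1 knockout and 0 BRM knockout libraries. Its higher value in the BRG1 knockout was thus favoured too, and its p-values are given as a description.

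**Figure D2:**
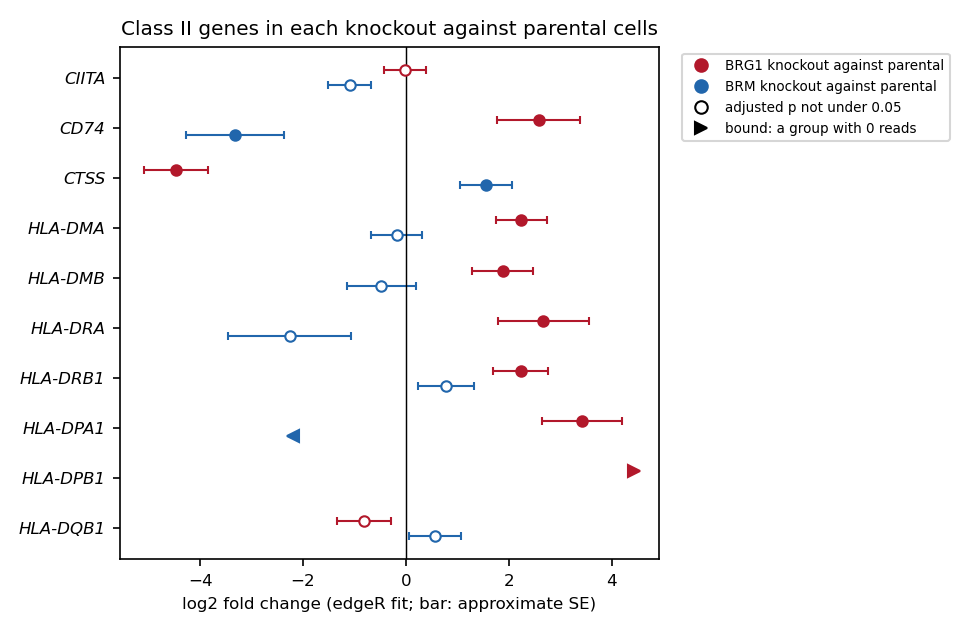
Log2 fold change of each class II gene in the BRG1 knockout (red) and the BRM knockout (blue) against parental cells, with bars of 1 approximate SE on each side and open points where the adjusted p was not under 0.05. Triangles are bounds where 1 group had 0 reads (HLA-DPB1 at least 21.7-fold higher in the BRG1 knockout, HLA-DPA1 at least 4.55-fold lower in the BRM knockout), and HLA-DPB1 in the BRM knockout has no point.

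Levels of different genes can be compared on the TPM scale. In parental cells the mean was 14.8 ± 10.3 TPM for CTSS, 4.55 ± 2.79 for HLA-DMA, 3.09 ± 3.02 for CD74, 2.10 ± 1.02 for HLA-DQB1, 1.90 ± 0.751 for CIITA and 0.886 ± 0.333 for HLA-DRB1 (SD, n = 3). HLA-DRA, HLA-DMB and HLA-DPA1 had means of 0.273, 0.272 and 0.182 TPM, and HLA-DPB1 was at 0. The ranges of neighbours in that order overlapped, except between CTSS and HLA-DMA, HLA-DRB1 and HLA-DRA, and HLA-DPA1 and HLA-DPB1. In the BRG1 knockout HLA-DMA (18.9 ± 7.0 TPM) and CD74 (16.9 ± 10.4) led, HLA-DRB1 followed at 3.53 ± 1.80, and the other 7 genes had means of 0.559 to 1.49. In the BRM knockout CTSS stood alone at 36.8 ± 2.23 TPM, followed by HLA-DMA at 4.02 ± 1.60 and HLA-DQB1 at 3.07 ± 0.00865.

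Partner chains did not stand at equal levels. The TPM of HLA-DMA was 14.6 to 42.0 times that of HLA-DMB over the 9 libraries. HLA-DRB1 was 2.01 to 5.62 times HLA-DRA in parental and BRG1 knockout libraries, and 33.7 and 17.8 times in BRM knockout replicates 1 and 3, where HLA-DRA had 1 and 3 reads. HLA-DPA1 was 2.20 to 2.84 times HLA-DPB1 in the BRG1 knockouts. Summed over the 5 antigen-binding chain genes, the level was 5.15, 2.40 and 2.79 TPM in parental, 12.5, 8.03 and 3.57 in BRG1 knockout and 4.57, 4.03 and 5.22 in BRM knockout libraries, so BRG1 knockout replicate 3 lay within the parental range.

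Within groups the replicates of most genes stood in a like order. CIITA, CD74, CTSS, HLA-DMA, HLA-DMB, HLA-DRA, HLA-DRB1 and HLA-DQB1 were each highest as CPM in replicate 1 of the parental group, and BRG1 knockout replicate 3 had the lowest CPM of its group for 9 of the 10 genes, CIITA being the exception. On the TPM scale that replicate was the highest of its group for CTSS (0.816 against 0.604 and 0.475) and not the lowest for HLA-DPB1 (0.401 against 0.919 and 0.356). That replicate was also the lowest for the epithelial markers, with EPCAM at 8.77 CPM against 38.1 and 47.6 and CDH1 at 6.64 CPM against 78.7 and 86.1 in BRG1 knockout replicates 1 and 2. Their part in the class II levels was not tested. In a fit with neither parental replicate 1 nor BRG1 knockout replicate 3, 7 of the 10 genes were higher and 1 lower in the BRG1 knockout. That fit leaves out the highest parental and the lowest BRG1 knockout library of most of these genes, so it favours higher values.

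Across the 9 libraries CD74, HLA-DRA, HLA-DPA1 and HLA-DMB had Pearson correlations of log2 CPM of 0.91 to 0.96 with each other. CTSS and HLA-DQB1 had 0.84 with each other, and CTSS had -0.78 with CD74. CIITA had 0.71 with CD74, 0.67 with HLA-DRA, 0.64 with HLA-DPA1, 0.54 with HLA-DMB, 0.47 with HLA-DMA, 0.37 with HLA-DPB1 and 0.26 with HLA-DRB1. With HLA-DQB1 and CTSS it had -0.23 and -0.40. These describe 9 libraries in 3 groups, carry no test, and for genes of a few reads also reflect depth. In the 3 BRG1 knockout libraries CIITA was 7.88, 4.04 and 4.38 CPM where CD74 was 25.7, 15.1 and 6.09, and in parental cells 8.37, 4.58 and 3.50 where CD74 was 5.65, 1.46 and 0.811.

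**Figure D3:**
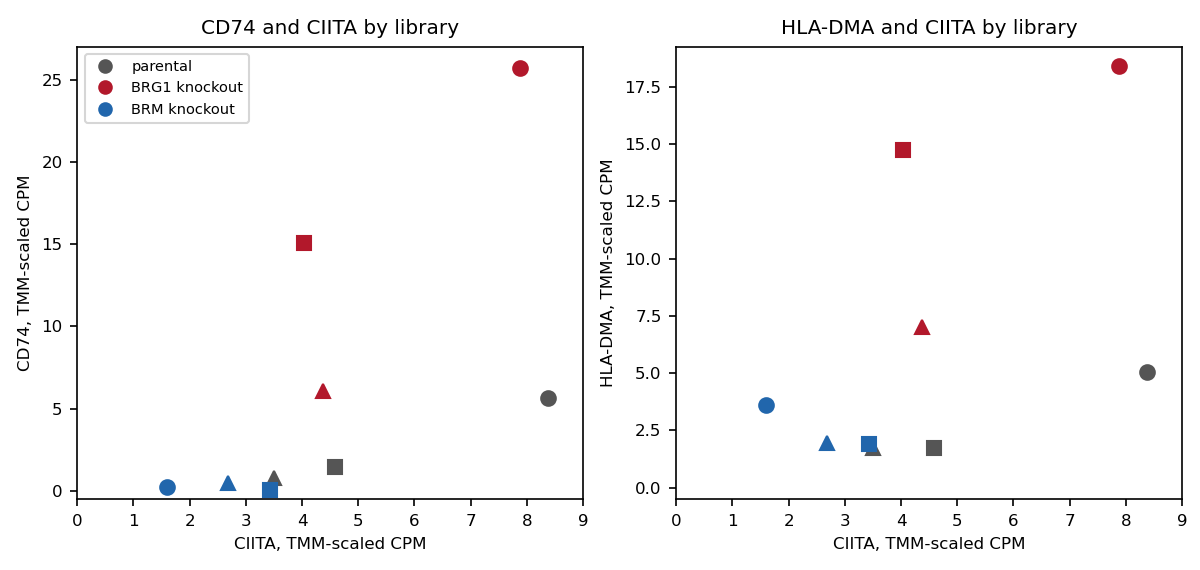
CD74 (left) and HLA-DMA (right) against CIITA, all as TMM-scaled CPM on linear axes, with 1 point per library, shapes giving the replicate number as in the plot of CPM by library. At similar CIITA CPM the BRG1 knockout libraries (red) lie above the parental ones (grey): with CIITA at 7.88 and 8.37 CPM, CD74 was 25.7 and 5.65. The likeness of CIITA holds on the CPM scale only, since the same 2 libraries had 1.01 and 2.56 TPM of CIITA.

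Among 11953 protein-coding genes averaging 1 log2 CPM or more, the 5 whose pattern over the 9 libraries was most like that of CIITA were TAF8 (r = 0.94), KCTD6 (0.93), GNAL (0.92), LRP11 (0.92) and MBD4 (0.91). For CD74 they were HIST1H1C (0.97), LENG1, SLC2A3, UNK and LZTFL1 (0.96 each). SLC2A3, a glucose transporter gene, averaged 12.5 CPM in parental, 30.7 in BRG1 knockout and 3.87 in BRM knockout cells, and HIST1H1C, a linker histone gene, 52.0, 138 and 22.1.

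The factors of the class II promoter module and the coactivators used by CIITA mostly did not pass in the BRG1 knockout. Of 16 such genes, 1 rose, 1 fell and 14 did not pass, with a median log2 fold change of 0.15, where 43.5% of all genes tested passed. RFXANK, a subunit of the RFX complex, rose by 1.02 ± 0.18 (adjusted p = 0.0011), and the acetyltransferase gene EP300 fell by 0.84 ± 0.29 (adjusted p = 0.037). Of the same 16 genes, 2 rose and 3 fell in the BRM knockout, where 37.4% of all genes passed. NFYB, a subunit of the Y box factor NF-Y, fell by 1.23 ± 0.16 (adjusted p = 0.00039), the acetyltransferase gene CREBBP by 0.96 ± 0.26 (adjusted p = 0.016) and the insulator protein gene CTCF by 0.69 ± 0.15 (adjusted p = 0.0046), while ZXDB rose by 0.69 ± 0.21 (adjusted p = 0.023). NFYB in the BRG1 knockout exceeded that in the BRM knockout by 1.56 ± 0.16 (adjusted p = 3.2e-05).

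Of 17 listed genes that act on CIITA or carry the interferon gamma signal, 14 were tested. In the BRG1 knockout 4 were higher and 3 lower, shares near those of all genes tested (21.6% higher, 21.9% lower). In the BRM knockout 3 were higher and 5 lower, against 21% and 16.4% of all genes. Those higher in the BRG1 knockout were the receptor genes IFNGR2 (2.43 ± 0.22, adjusted p = 1.7e-05) and IFNGR1 (0.83 ± 0.16, 0.0019), the kinase gene JAK2 (0.58 ± 0.19, 0.029) and MYC (0.88 ± 0.23, 0.0095). The 3 that fell were IRF1, which binds the CIITA promoter (-1.29 ± 0.21, adjusted p = 0.00072), IRF2 (-0.80 ± 0.20, 0.0084) and the repressive methyltransferase gene EZH2 (-1.31 ± 0.20, 0.00041). Among those that did not pass were JAK1, USF1, SOCS1, PTPN2, PRDM1 and STAT3, with values from -0.45 to 0.50.

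In the BRM knockout IFNGR2 (1.27 ± 0.21, adjusted p = 0.0013), STAT3 (0.76 ± 0.16, 0.0044) and PRDM1, a known repressor of CIITA (0.78 ± 0.22, 0.019), rose. EZH2 (-1.91 ± 0.20, adjusted p = 0.00015), IRF1 (-0.86 ± 0.21, 0.0091), USF1 (-0.69 ± 0.18, 0.012), JAK2 (-0.75 ± 0.19, 0.011) and the phosphatase gene PTPN2 (-0.51 ± 0.18, 0.043) fell. JAK2 and PRDM1 differed between the knockouts, by 1.33 ± 0.19 (adjusted p = 0.00028) and -1.05 ± 0.23 (adjusted p = 0.0033). SPI1 and IRF4, blood cell factors, had at most 4 and 2 reads in a library, and IRF8 had none.

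Of 22 other interferon gamma targets tested, 2 rose and 9 fell in the BRG1 knockout, with a median log2 fold change of -0.43, where 21.6% of all genes were higher and 21.9% lower. For the BRM knockout the counts were 2 higher and 5 lower, with a median of 0.01, against 21% higher and 16.4% lower and a median of 0.09 over all genes. The peptide transporter gene TAP2 fell by 1.21 ± 0.17 (adjusted p = 0.00022) and by 1.50 ± 0.17 (adjusted p = 0.00018) in the BRG1 and BRM knockouts. The immunoproteasome gene PSMB9 fell by 2.36 ± 0.36 (adjusted p = 0.00041) and 1.51 ± 0.34 (adjusted p = 0.0062), and GBP1 by 1.42 ± 0.22 (adjusted p = 0.00043) and 0.88 ± 0.21 (adjusted p = 0.0084). B2M, the shared light chain of MHC class I, rose by 1.33 ± 0.21 in the BRG1 knockout (adjusted p = 0.00052), and HLA-F rose by 1.50 ± 0.40 in the BRM knockout (adjusted p = 0.014).

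Genes lying near the class II genes were also read. Only protein-coding genes were taken here, while the shares are of all genes tested, of any type. Between the first and last class II gene, chr6:32439842-33143325, 6 further protein-coding genes were tested. Of these, 0 rose and 5 fell in the BRG1 knockout, with a median log2 fold change of -1.28, where 21.9% of all genes fell. The 5 that fell were TAP1 (-1.58 ± 0.26, adjusted p = 0.00076), TAP2, PSMB8 (-1.0 ± 0.25, 0.0073), PSMB9 and AL669918.1 (-1.35 ± 0.44, 0.029), while BRD2 was -0.11 ± 0.13 (0.54). TAP1, TAP2, PSMB8 and PSMB9 are also among the interferon gamma targets counted above. The BRM knockout had 3 of the 6 lower, where 16.4% of all genes fell. Within 500 kb of CIITA, 7 other protein-coding genes were tested. In the BRG1 knockout 1 rose and 2 fell, a share near the 43.5% of all genes that passed: DEXI rose (0.60 ± 0.15, adjusted p = 0.0077) and RMI2 (-1.01 ± 0.19, 0.0015) and EMP2 (-1.94 ± 0.14, 4.2e-06) fell. Of the same 7 genes, 4 fell in the BRM knockout, where 16.4% of all genes fell. The 4 were RMI2 (-2.35 ± 0.20, adjusted p = 6.6e-05), NUBP1 (-1.10 ± 0.19, 0.0014), CLEC16A (-0.88 ± 0.21, 0.007) and DEXI (-0.63 ± 0.15, 0.0074). The median of the 7 was -0.86, against 0.09 over all genes.

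Of 18 endosomal processing genes other than CTSS, 8 rose and 2 fell in the BRG1 knockout, with a median of 0.44, where 21.6% of all genes were higher and 21.9% lower. The cathepsin genes CTSF (2.83 ± 0.32, adjusted p = 6.6e-05) and CTSZ (1.10 ± 0.15, 0.00024) rose, as did CTSH (1.94 ± 0.34, 0.00095), CTSD (0.97 ± 0.20, 0.0027), CTSB (0.92 ± 0.21, 0.0053), SPPL2A, which clears the CD74 stub (0.66 ± 0.18, 0.011), and the transport gene DCTN1 (0.53 ± 0.15, 0.013). Of the ubiquitin ligase genes that turn class II over, MARCH8 rose (1.83 ± 0.25, adjusted p = 0.0002) and MARCH1 fell (-1.74 ± 0.28, 0.00066). RAB7A, of late endosomes, fell (-0.33 ± 0.12, adjusted p = 0.048).

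Of those 18 genes, 3 passed in the BRM knockout, against 37.4% of all genes, with a median of 0.08: CTSF rose (1.25 ± 0.30, adjusted p = 0.0084), and AP1M1 (-0.82 ± 0.15, 0.0019) and CTSV (-0.83 ± 0.28, 0.04) fell. CTSL, another protease gene whose product can trim CD74, gave 0.35 ± 0.24 (adjusted p = 0.26) in the BRG1 knockout and 0.19 ± 0.24 (0.56) in the BRM knockout. CTSF, a cathepsin that can trim CD74 in macrophages, averaged 11.5 ± 3.82 CPM in parental, 81.9 ± 20.2 in BRG1 knockout and 27.4 ± 8.84 in BRM knockout cells (SD, n = 3).

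**Figure D4:**
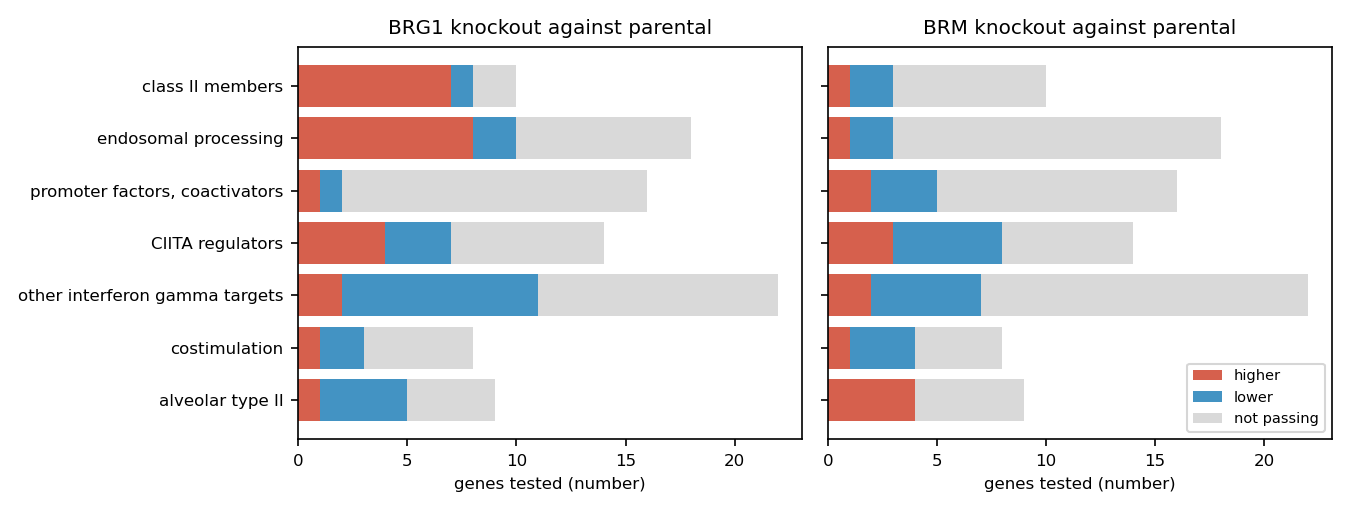
Number of genes (horizontal axis) that were higher, lower or did not pass an adjusted p of 0.05 in each of 7 gene lists, for the BRG1 knockout (left) and the BRM knockout (right) against parental cells. In the BRG1 knockout 7 of the 10 class II genes and 8 of 18 endosomal processing genes were higher, against 21.6% of all genes tested. There 9 of 22 other interferon gamma targets were lower, against 21.9%. HLA-DRA, HLA-DPA1, HLA-DPB1 and HLA-DMB would not have been tested without the BRG1 knockout libraries, so their higher values were favoured.

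Of 8 costimulatory genes tested, 1 rose and 2 fell in the BRG1 knockout, a share near the 43.5% of all genes that passed: CD40, a receptor of antigen presenting cells, rose by 1.59 ± 0.23 (adjusted p = 0.00028), and the adhesion ligand gene CD58 fell by 2.07 ± 0.20 (adjusted p = 2.2e-05), as did PDCD1LG2 (-3.22 ± 0.68, 0.0032). In the BRM knockout 4 of the 8 passed, 1 higher and 3 lower, against 37.4% of all genes (21% higher, 16.4% lower). ICOSLG rose by 2.14 ± 0.46 (adjusted p = 0.0044), and CD83 (-1.27 ± 0.30, adjusted p = 0.0069), CD40 (-0.86 ± 0.23, 0.012) and PDCD1LG2 (-2.38 ± 0.64, 0.014) fell. CD40 thus differed by 2.45 ± 0.23 between the knockouts (adjusted p = 1.6e-05). PDCD1LG2 stood at 1.24 to 1.90 CPM in parental, 0.0568 to 0.277 in BRG1 knockout and 0.101 to 0.572 in BRM knockout libraries. It would not have passed the low-count filter without the parental libraries. A lower value in both knockouts was thus favoured, and the p-values of PDCD1LG2 are given as a description. CD80 had 1 read in the 9 libraries. CD86 had 6 to 25 reads in the parental and BRM knockout libraries and in BRG1 knockout replicate 3, and 0 in BRG1 knockout replicates 1 and 2.

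Of the 19 blood and antigen presenting cell markers 7 were tested, and in the BRG1 knockout 1 rose and 1 fell, where 43.5% of all genes passed. CSF1R, the receptor for a macrophage growth factor, gave 0.798, 1.62 and 1.72 CPM in parental, 5.85, 7.23 and 7.22 in BRG1 knockout and 0.241, 0.542 and 0.506 in BRM knockout libraries. CSF1R rose by 2.29 ± 0.37 in the BRG1 knockout (adjusted p = 0.00058) and fell by 1.68 ± 0.39 in the BRM knockout (adjusted p = 0.007), the directions of CD74. LAPTM5 fell by 1.93 ± 0.33 in the BRG1 knockout (adjusted p = 0.00082). PTPRC, the common leukocyte antigen, had 4 to 20 reads in parental and BRG1 knockout libraries and 0 to 3 in BRM knockouts. The part of CSF1R and PTPRC in the class II values was not tested.

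Alveolar type II genes were listed because those cells are known to carry class II. Of 9 tested, 1 rose and 4 fell in the BRG1 knockout, where 43.5% of all genes passed (21.6% higher, 21.9% lower). In the BRM knockout 4 rose and 0 fell, where 37.4% passed (21% higher, 16.4% lower). The one that rose in the BRG1 knockout was HHIP (3.55 ± 0.67, adjusted p = 0.0016). HHIP stood at 0.0954 to 0.399 CPM in parental, 2.84 to 3.68 in BRG1 knockout and 0 to 0.241 in BRM knockout libraries. It would not have passed the low-count filter without the BRG1 knockout libraries. A higher value there was thus favoured, and its p-value is given as a description. NKX2-1, the lung lineage factor, had 3424, 2506 and 3013 reads in parental, 1, 1 and 0 in BRG1 knockout and 9812, 5657 and 10862 in BRM knockout libraries. In the BRM knockout ABCA3, a surfactant lipid transporter, rose by 2.80 ± 0.25 (adjusted p = 9.2e-05) and LPCAT1 by 2.56 ± 0.30 (adjusted p = 0.00023). LPCAT1, a lipid enzyme gene, was 0.57 ± 0.29 in the BRG1 knockout (adjusted p = 0.13), with means of 147 CPM in parental and 219 CPM in BRG1 knockout cells. Summed over NKX2-1, the 5 surfactant protein genes, ABCA3, NAPSA, LAMP3 and SLC34A2, a sum that is mostly NKX2-1 in parental cells (65.4 to 105 CPM) and holds neither LPCAT1 nor HHIP, the range was 70.9 to 118 CPM in parental, 2.43 to 5.66 in BRG1 knockout and 195 to 298 in BRM knockout libraries, with SFTPA1 at 0 reads in all 9. The surfactant protein genes together had 2 to 10 reads per library. The part of these levels in the class II values was not tested.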

How the data were processed

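RNA-seq of H358 cells was deposited as 1 table of transcripts per library, 9 in all. The estimated counts in those tables are the authors' Salmon output, not normalized, per the file headers. The TPM values and effective lengths come from the same deposited tables, per the file headers. Besides Salmon, DESeq2 and hg38 are named in the submitters' processing notes. Versions, annotation, library type and strand setting are not stated in these sources. Of 203835 transcripts, 203746 matched a GENCODE 29 gene. The 89 others, with 0.0193% of the reads of any library or less, were dropped.

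Estimated counts were summed per gene and rounded. Genes passing filterByExpr (18205 of 58237) were fitted in 1 edgeR 4.0.16 quasi-likelihood model of the 9 libraries (R 4.3.3, TMM, robust, 6 residual degrees of freedom, two-sided F test, Benjamini-Hochberg over all genes tested, threshold 0.05). The SE is the log2 fold change divided by the root of F. A group with 0 reads was set at a floor of 3 reads. TPM were summed per gene.

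The alternatives were DESeq2 1.42.0, its size factors in edgeR, limma 3.58.1 voom, 2 other filters, a fit of only the 6 libraries compared, a replicate block, length offsets, protein-coding transcripts only, each library left out, and a fit lacking both parental replicate 1 and BRG1 knockout replicate 3. All 10 genes were named. From each other list the text gives the counts and mainly the up to 4 members with the smallest p. Further members of the processing, costimulation, alveolar and marker lists (CTSB, CTSD, CTSH, SPPL2A, DCTN1, RAB7A, CTSL, PDCD1LG2, HHIP, CD80, CD86, CSF1R and PTPRC) were named after their values were seen. The genes and lists were chosen with earlier results of these data known. Groups come from the genotype label.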

Additional observations from a re-analysis of the deposited data

Results flagged for a closer look

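CD74 and CTSS had opposite changes in the 2 knockouts, and the test of the difference itself passed for both. For CD74 the BRG1 knockout exceeded the BRM knockout by 5.90 on the log2 scale (adjusted p = 0.00099), with a rise against parental cells in one and a fall in the other. For CTSS the difference was -6.01 (adjusted p = 6.1e-05), with the directions exchanged. The CD74 rise and fall against parental cells were each lost when 1 of several libraries was left out, and so was the CTSS rise in the BRM knockout. In both genes the 3 libraries of each knockout lay apart from the 3 parental libraries on opposite sides.
HLA-DPA1 was also called higher in the BRG1 knockout and lower in the BRM knockout. It had 0 reads in every BRM knockout library and entered the test only through the BRG1 knockout libraries.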

How the results depend on the processing

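Over 30 member comparisons (10 genes in 3 comparisons) and 19 alternatives, 550 values were obtained: 474 kept their direction and side of the threshold or did not pass in either fit, 57 lost a call, 19 gained one and 0 reversed. Of the 30, 18 changed in no alternative. A gene below the filter of a fit gave no value in it. With at least 1 CPM required in 3 libraries, which leaves fewer genes to test, 3 class II genes were higher in the BRG1 knockout against parental cells, 3 higher against the BRM knockout and 1 lower in the BRM knockout. Genes higher in the BRM knockout numbered 0 without the low-count filter, 0 with protein-coding transcripts only, and 2 in the fit lacking parental replicate 1 and BRG1 knockout replicate 3. Genes lower in the BRM knockout numbered 0 under limma voom and 1 with protein-coding transcripts only. Genes lower in the BRG1 than the BRM knockout numbered 1 with DESeq2's size factors, with only the 6 libraries compared, with protein-coding transcripts only and with length offsets. The cause of these changes was not tested. Leaving out 1 library gave 4 to 7 class II genes higher in the BRG1 knockout, 0 to 1 higher and 0 to 3 lower in the BRM knockout, and 1 to 2 lower in the BRG1 than the BRM knockout. Over all genes, 2457 to 4033 were higher in the BRM knockout, the fewest without parental replicate 2 and 2469 without parental replicate 3. HLA-DQB1 was called in the BRM knockout only with both named libraries left out (0.93, adjusted p = 0.0312), 1 of which was its highest parental library.

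Whether replicate numbers pair the samples was not settled. Deviations from the group means correlated at -0.079 to 0.175 for 9 pairs with the same number and -0.154 to 0.118 for 18 others. The largest value, 0.175, was that of parental replicate 1 with BRG1 knockout replicate 1. With the number as a replicate block, the counts of class II genes higher and lower were 7 and 1 in the BRG1 knockout, 1 and 2 in the BRM knockout, and 6 and 2 between the knockouts. The replicate block changed 1 of 30 calls, that of HLA-DRB1 between the knockouts (1.34, adjusted p = 0.0803). Depth limits HLA-DRA, HLA-DPA1, HLA-DPB1 and HLA-DMB most, with at most 28 to 85 reads in a library.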
